A study of Mus musculus with 12 samples.

Results

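The 30 genes described here make cholesterol and fatty acids or control their making, and most are known targets of the sterol regulatory element-binding proteins (SREBPs). They were taken by name: the rows of the deposited gene count table whose identifiers map to 30 chosen symbols. The symbols were chosen with earlier results of these data known, which limits each comparison with all genes below. All 30 were found among 37620 gene identifiers, and all 30 passed the filter on low counts that left 14616 genes for testing. By role they comprise 6 genes of the mevalonate steps, 3 of the squalene and lanosterol steps, 8 of the steps from lanosterol to cholesterol, 5 regulators, 7 fatty acid genes and the sterol carrier Stard4.

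The cells were primary macrophages grown from the bone marrow of C57BL/6 mice and labelled as day 7 of culture, with no other allele named. Polyadenylated RNA was sequenced in 12 libraries, 3 for each of 4 groups. The groups combine normoxia or hypoxia (1% oxygen) with 25 mM NaCl or sodium lactate, and are called hypoxia-lactate, hypoxia-NaCl, normoxia-lactate and normoxia-NaCl. No source used here gives the oxygen level of normoxia or the length of exposure. Nothing in the labels ties the 3 libraries of a group to separate animals or cultures. The p-values below therefore measure only the spread between libraries, which may be technical. The comparisons ask what low oxygen and lactate do to macrophage transcripts, singly and jointly.

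Macrophages take up much of their cholesterol from lipoproteins and engulfed cells, and make the rest from acetyl-CoA. When sterols in the endoplasmic reticulum membrane are scarce, the escort protein SCAP carries SREBPs to the Golgi apparatus, where proteases release the part that enters the nucleus and turns on the enzymes. When sterols are plentiful, INSIG proteins hold SCAP and the SREBPs back. Several steps between lanosterol and cholesterol, squalene epoxidation and fatty acid desaturation use molecular oxygen as a substrate.

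Gene counts totalled 22705978 to 49885085 per library. The library hypoxia-lactate 3 stood apart from the other 11: it had 11437 genes with at least 10 counts against 13198 to 14767 elsewhere, and 0.486% of its counts came from mitochondrially encoded genes against 2.04% to 4.75%. For 25 of the 30 genes its level lay outside the range of all other libraries, above it for 11 and below it for 14. Among all tested genes it lay above that range for 28.1% and below it for 43.4%, so the 30 genes shared a spread found across the transcriptome. Results that rest on this library are therefore given with and without it. The 7 hypoxia-responsive genes used to check the oxygen labels were higher in hypoxia without lactate, with lactate and averaged over both, by 1.90 to 4.91 on the log2 scale (highest Benjamini-Hochberg adjusted p of edgeR's quasi-likelihood test 0.0421). The 8 macrophage markers summed to 32696 to 47850 CPM (TMM-scaled read counts relative to library size) in the 12 libraries. The 5 adipocyte markers, the 6 lymphocyte markers and the 7 erythroid and mast cell markers were each below 1 CPM in all 12 libraries, as were Ly6g, Camp and Elane of the 7 neutrophil markers and Dcn and Lum of the 6 fibroblast markers. The neutrophil markers summed to 1.27 to 40.7 CPM in normoxia and 0.241 to 34.9 CPM in hypoxia, and the fibroblast markers to 34.8 to 95.8 CPM and 25.2 to 100.2 CPM, so both overlapped between oxygen levels.

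SREBPs bind the sterol regulatory element, usually next to a CCAAT box bound by NF-Y, so the proximal promoters of the 30 genes were searched for these letters. The RefSeq promoter table (GRCm38.p6, another build than the mm9 of the counts) covers 250 bases before to 50 bases after a gene's start. It held 24 of the 30 genes and lacked Fdps, Fdft1, Sqle, Scd1, Scd2 and Stard4. On both strands, CCAAT was found for 20 of the 24 genes (83.3%), against 41.1% of 27025 genes in the table, and 10 of the 24 had at least 2 matches in 1 window, against 13.3%. The E-box CACGTG was found for 5 genes (20.8% against 8.09% of all genes), and ACGTG, the core of the hypoxia response element, which is contained in CACGTG, for 8 (33.3% against 21.8%). The sterol regulatory element of the textbook consensus, and the shorter TCACNCCAC within it, were found for 0 of the 24, against 0.27% and 1.44% of all genes. The still shorter TCACNCCA, searched after those gave none, was found for Srebf2 and Msmo1 (8.33% against 4.97%). Such matches describe letters in a window and are not measured binding sites.

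The promoters of 5 members are printed. Srebf2 and Mvd stand for the genes whose hypoxia libraries, but for hypoxia-lactate 3, lay below all normoxia libraries, and Fasn for fatty acid synthesis. Insig1 and Insig2 are the paired inhibitors. Their values lay on opposite sides of 0 in hypoxia without lactate, but both overlapped between the groups and neither was called there. Capitals mark matches to CCAAT (or ATTGG, its reverse complement), CACGTG and TCACNCCA, and each sequence is given 5′ to 3′ on the strand of its gene. Each printed stretch stops before the first annotated exon, so not all of them end at the start. The stretch of Srebf2 spans positions -250 to -89 relative to the start, and that of Insig1 positions -250 to -50. Those of Mvd, Fasn and Insig2 span positions -250 to -1. The Srebf2 window is chr15:82147019-82147180 (+), with TCACNCCA 162 bases and a CCAAT box 135 bases before the start. That of Mvd is chr8:122443423-122443672 (-), with CCAAT boxes 60 and 27 bases before the start. The Fasn window is chr11:120824548-120824797 (-), in which 3 CCAAT matches start 90, 62 and 59 bases before the start, the last 2 overlapping on opposite strands. For Insig1 it is chr5:28071162-28071362 (+), with CCAAT 216 and CACGTG 101 bases before the start. For Insig2 it is chr1:121332590-121332839 (-), with CCAAT 136, 46 and 29 bases before the start and no CACGTG.
Srebf2: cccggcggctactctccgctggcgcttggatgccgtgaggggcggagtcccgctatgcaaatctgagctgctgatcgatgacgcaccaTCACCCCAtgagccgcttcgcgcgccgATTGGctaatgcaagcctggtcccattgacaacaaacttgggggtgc
Mvd: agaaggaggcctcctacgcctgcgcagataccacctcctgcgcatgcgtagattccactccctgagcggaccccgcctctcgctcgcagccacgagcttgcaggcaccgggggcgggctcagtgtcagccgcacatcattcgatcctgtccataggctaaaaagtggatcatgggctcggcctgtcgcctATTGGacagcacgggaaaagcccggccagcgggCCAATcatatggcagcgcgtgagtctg
Fasn: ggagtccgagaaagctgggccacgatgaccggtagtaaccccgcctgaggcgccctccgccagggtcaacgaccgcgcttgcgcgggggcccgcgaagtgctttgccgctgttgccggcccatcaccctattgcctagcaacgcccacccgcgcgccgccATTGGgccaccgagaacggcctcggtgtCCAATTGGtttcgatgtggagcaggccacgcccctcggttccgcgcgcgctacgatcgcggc
Insig1: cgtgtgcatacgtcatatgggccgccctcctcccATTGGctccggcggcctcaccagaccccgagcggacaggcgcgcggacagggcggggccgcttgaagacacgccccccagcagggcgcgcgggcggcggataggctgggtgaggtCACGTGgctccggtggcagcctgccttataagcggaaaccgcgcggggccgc
Insig2: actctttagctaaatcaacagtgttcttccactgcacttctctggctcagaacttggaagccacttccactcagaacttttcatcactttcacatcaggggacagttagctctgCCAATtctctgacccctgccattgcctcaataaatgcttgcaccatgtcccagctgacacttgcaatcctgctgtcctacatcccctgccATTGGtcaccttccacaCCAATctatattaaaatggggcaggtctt

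Levels between genes were compared as CPM per kilobase of exon in the normoxia-NaCl group. The length joins all annotated exons of a gene, so a long annotation lowers its rank. It was 17.1 kilobases for Acaca and 10.8 kilobases for Lss. Srebf2, the SREBP that mainly drives sterol genes, and Acly, which makes cytosolic acetyl-CoA from citrate, stood at the top with 38.0 ± 3.33 and 37.7 ± 3.34 CPM per kilobase (SD, n = 3), a difference smaller than their spread. The sterol isomerase Ebp (23.1 ± 5.95) and the mevalonate diphosphate decarboxylase Mvd (22.6 ± 1.69) came next and did not differ beyond their spread. Srebf1, whose products mainly drive fatty acid genes, was at 17.9 ± 2.13 and Scap at 13.9 ± 2.85. Most enzymes lay between 12.6 (Msmo1, the sterol methyl oxidase) and 3.42 (Lss, lanosterol synthase). The lowest were Hsd17b7 (1.71), the acetyl-CoA carboxylase Acaca (1.61), the desaturase Scd1 (0.845) and the elongase Elovl6 (0.827). Scd2 was at 6.90 ± 1.35, above Scd1 at 0.845 ± 0.297 in these macrophages.

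In the NaCl medium, hypoxia against normoxia (called hypoxia without lactate), the sterol genes tended to lower levels, and none of the 30 passed the test over all genes. The log2 fold change was below 0 for 27 of the 30 genes, against 48.8% of all tested genes, with a median of -0.47 against 0.01 for all tested genes. With all 12 libraries, edgeR called 0 of the 30 at an adjusted p under 0.05, where 0.281% of all genes were called (0.0137% lower). At an unadjusted p under 0.05 it counted 5 of the 30 (6.49% of all genes), 5 lower and 0 higher, against 3.2% and 3.29%. DESeq2 called 1 (1.05% of all genes) and limma-voom 0. The 3 hypoxia-NaCl libraries lay below all 3 normoxia-NaCl libraries for 15 of the 30 genes, against 12% of all genes, and above them for 0, against 12.8%. In bulk RNA, fewer cells that use a gene and less RNA per cell cannot be told apart.

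**Figure D1:**
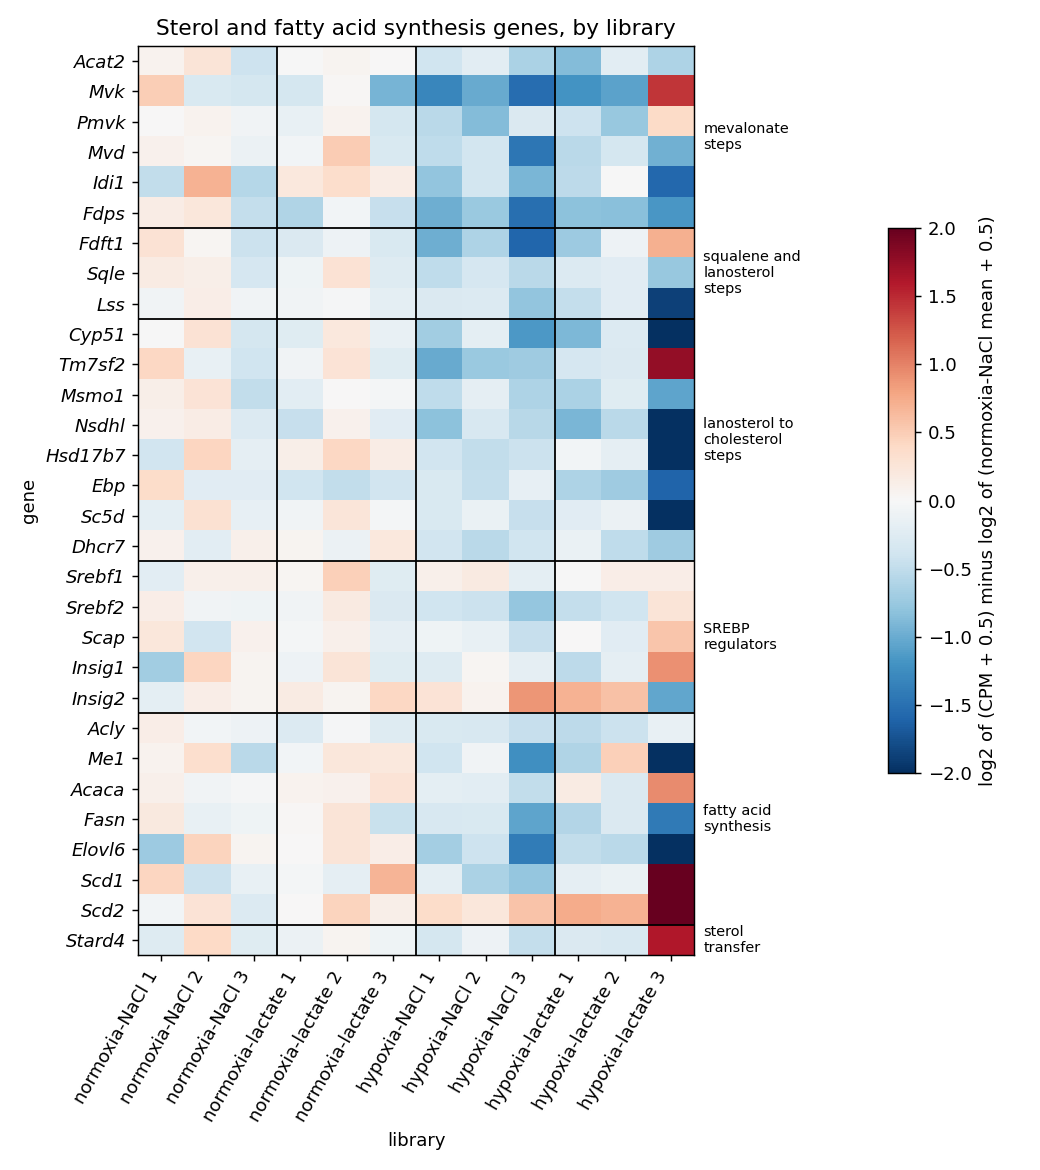
Level of each of the 30 genes (rows, ordered by role) in each of the 12 libraries (columns, by group). Colours give log2 CPM relative to the gene's mean in normoxia-NaCl, with the scale ending at -2 and 2. Most sterol enzymes are below that mean in the hypoxia columns, and hypoxia-lactate 3 departs in both directions.

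Among the 6 mevalonate genes, all 6 had log2 fold changes below 0 in hypoxia without lactate (median -0.71). Mvk (ENSMUSG00000041939), the kinase that phosphorylates mevalonate, read 27.4, 15.7 and 15.1 CPM in the normoxia-NaCl libraries and 7.58, 9.34 and 6.43 CPM in the hypoxia-NaCl libraries. All hypoxia-NaCl values were below all normoxia-NaCl values, with a log2 fold change of -1.31 ± 0.61 (SE; edgeR, Benjamini-Hochberg adjusted p 0.773). Without hypoxia-lactate 3, which also sets the spread shared by all groups in the fit, the change was -1.32 ± 0.28 and Mvk was called lower (edgeR, adjusted p 0.0351). Fdps (ENSMUSG00000059743), the synthase of farnesyl diphosphate at the branch to sterols and prenyl groups, read 39.1, 41.0 and 25.2 CPM in normoxia-NaCl and 17.6, 20.7 and 11.99 CPM in hypoxia-NaCl. Its groups did not overlap either. The log2 fold change of Fdps was -1.06 ± 0.28 (edgeR, adjusted p 0.315), and -1.07 ± 0.23 without hypoxia-lactate 3, where it was called lower (edgeR, adjusted p 0.0388). Mvk and Fdps were the 2 of 30 genes called in that fit, in which 0.557% of 15088 tested genes were lower and 1.23% higher. Neither was called when normoxia-NaCl 1 was left out as well (0 of 30, against 1.23% of all genes). The library numbers as a block, fitted over all 4 groups, gave 0 of 30 calls with all libraries. Without hypoxia-lactate 3 the block gave 7 of 30, all lower, where 5.08% of all genes were called. No fit paired the 2 NaCl groups alone, and the lactate libraries, whose pairing fell short, also set the block. With the block and without hypoxia-lactate 3, Mvk stood at -1.31 and Fdps at -1.07 on the log2 scale (edgeR, adjusted p 0.00676 and 0.00384). The other 5 were Mvd, Fdft1, Cyp51, Tm7sf2 and Srebf2.

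The other mevalonate genes were not called for hypoxia without lactate in either fit without the block. Mvd (ENSMUSG00000006517) read 44.6, 43.1 and 38.6 CPM in normoxia-NaCl and 29.5, 32.6 and 15.2 CPM in hypoxia-NaCl, without overlap and at -0.71 ± 0.30 on the log2 scale. With the block and without hypoxia-lactate 3 it was called lower (-0.78; edgeR, adjusted p 0.0250). Pmvk, the next kinase after Mvk, read 20.8, 21.9 and 19.7 CPM and 14.1, 11.2 and 16.9 CPM, also without overlap (-0.56 ± 0.30). Idi1, the isomerase of isopentenyl diphosphate, overlapped: it read 10.1, 23.4 and 9.48 CPM against 8.07, 11.0 and 7.36 CPM. Acat2, the cytosolic thiolase that joins 2 acetyl-CoA units, overlapped as well, at -0.42 ± 0.29. Counts of Acat2 and Idi1 are uncertain, since other genes share at least 200 bases with them at 90% identity or more.

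The 3 genes that turn farnesyl diphosphate into lanosterol were each lower in all hypoxia-NaCl libraries than in any normoxia-NaCl library. Fdft1, squalene synthase, read 30.2, 25.2 and 18.0 CPM in normoxia-NaCl and 12.2, 15.7 and 7.78 CPM in hypoxia-NaCl (log2 fold change -1.04 ± 0.37). Sqle, the oxygen-using squalene epoxidase, read 49.6, 48.3 and 35.0 CPM and 31.0, 34.8 and 30.5 CPM (-0.46 ± 0.23). The groups of Sqle were separated by a narrow gap, from 34.8 to 35.0 CPM. Lss read 35.2, 40.3 and 35.2 CPM against 30.2, 30.3 and 21.1 CPM (-0.44 ± 0.34). None of the 3 passed the test with all libraries or without hypoxia-lactate 3, where Fdft1 came nearest (edgeR, adjusted p 0.0669). With the block as well, Fdft1 was called lower at -1.07 (edgeR, adjusted p 0.0106). Counts of Fdft1 are uncertain because of a near-copy, Gm6781, and an exon overlap with Ctsb, and those of Sqle because 2 other genes share a stretch of up to 224 bases with it.

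The 8 genes from lanosterol to cholesterol all had log2 fold changes below 0 in hypoxia without lactate, from -0.84 (Tm7sf2) to -0.30 (Sc5d), with 4 of the 8 free of overlap. Tm7sf2, a sterol reductase, read 24.7, 16.7 and 14.0 CPM in normoxia-NaCl and 8.95, 10.8 and 11.0 CPM in hypoxia-NaCl. Nsdhl, a sterol dehydrogenase, read 23.4, 24.4 and 18.1 CPM and 12.2, 17.6 and 14.9 CPM. Dhcr7, the reductase of the last step to cholesterol, read 41.9, 34.2 and 42.8 CPM and 30.3, 27.0 and 29.9 CPM. These 3 genes did not overlap, and Hsd17b7, a ketosteroid reductase, also did not, with its highest hypoxia-NaCl value (6.52 CPM) just under its lowest normoxia-NaCl value (6.58 CPM). The oxygen-using demethylase Cyp51 overlapped, with 46.2, 56.9 and 36.3 CPM in normoxia-NaCl and 28.4, 40.5 and 20.7 CPM in hypoxia-NaCl. Msmo1, Ebp and the desaturase Sc5d overlapped too, at -0.43 ± 0.25, -0.31 ± 0.26 and -0.30 ± 0.47. Of the 8, Cyp51 (-0.67) and Tm7sf2 (-0.82) were called lower with the block and without hypoxia-lactate 3 (edgeR, adjusted p 0.0238 and 0.0423). Counts of Msmo1 are uncertain, since 85 other genes share a stretch of up to 216 bases with it, as are those of Tm7sf2 and Cyp51, whose exons overlap Vps51 and Akap9.

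The summed level of the 17 enzymes of the sterol pathway gives the same picture library by library. It was 592, 593 and 451 CPM in normoxia-NaCl and 482, 578 and 480 CPM in normoxia-lactate. In hypoxia-NaCl it was 367, 411 and 327 CPM, and in hypoxia-lactate 370, 418 and 363 CPM. All 6 hypoxia libraries, hypoxia-lactate 3 included, were below all 6 normoxia libraries, while the NaCl and lactate libraries overlapped at each oxygen level. In hypoxia-lactate 3 that sum hides single genes far from the other libraries in both directions.

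**Figure D2:**
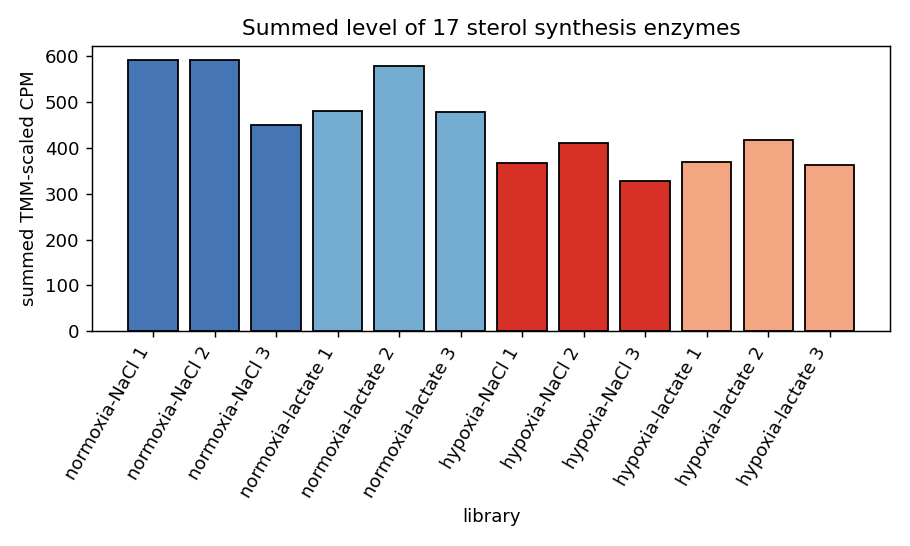
Summed TMM-scaled CPM of the 17 sterol pathway enzymes (vertical axis, from 0) in each of the 12 libraries (horizontal axis), coloured by group. The hypoxia libraries lie between 327 and 418 CPM and the normoxia libraries between 451 and 593 CPM.

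The regulators moved less alike. Srebf2 (ENSMUSG00000022463) read 300.3, 261 and 258 CPM in normoxia-NaCl and 207, 202 and 159 CPM in hypoxia-NaCl, without overlap and at -0.53 ± 0.22 on the log2 scale. It was not called in hypoxia without lactate (edgeR, adjusted p 0.709, and 0.109 without hypoxia-lactate 3), except with the block and without hypoxia-lactate 3 (-0.54, adjusted p 0.0354). Srebf1 read 87.0, 108 and 108 CPM against 108, 114 and 88.4 CPM, groups that overlapped with a log2 fold change of 0.04 ± 0.20. Scap overlapped at -0.23 ± 0.23. Insig1, itself a known SREBP target, overlapped at -0.13 ± 0.37. Insig2 (ENSMUSG00000003721), the second SCAP-holding protein, had a log2 fold change of 0.46 ± 0.38 and read 22.3, 28.2 and 26.6 CPM in normoxia-NaCl and 31.3, 27.1 and 47.9 CPM in hypoxia-NaCl. It was 1 of 3 members above 0, with Scd2 and Srebf1, and was not called in either fit of this comparison.

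Of the 7 fatty acid genes, 6 were below 0 in hypoxia without lactate (median -0.52) and none was called. Fasn, the fatty acid synthase, read 155, 122 and 128 CPM in normoxia-NaCl and 107, 109 and 64.3 CPM in hypoxia-NaCl, without overlap (-0.53 ± 0.30). Acly read 219, 193 and 186 CPM against 161, 160 and 145 CPM, also without overlap (-0.36 ± 0.16). The carboxylase Acaca had no overlap at -0.30 ± 0.28. Elovl6, Me1 (the malic enzyme that makes cytosolic NADPH) and Scd1 were low and overlapped, with log2 fold changes of -0.87 ± 0.87, -0.52 ± 0.56 and -0.58 ± 0.77. Scd2 (ENSMUSG00000025203), the more abundant stearoyl-CoA desaturase here, was above 0, with 36.1, 45.8 and 31.2 CPM in normoxia-NaCl and 48.7, 43.9 and 56.4 CPM in hypoxia-NaCl (0.40 ± 0.40). Those groups overlapped. Stard4, which carries sterols between membranes, overlapped at -0.30 ± 0.43. Counts of Me1, Acaca, Elovl6, Scd1 and Scd2 are uncertain because of near-identical copies, which for Scd2 include Scd1. Exons of Srebf1 overlap those of Rai1, and exons of Idi1, Fdps, Lss, Scap, Me1, Elovl6 and Scd2 those of other annotated genes, so these counts are uncertain too.

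In the lactate medium, hypoxia against normoxia (called hypoxia with lactate), the values turned on hypoxia-lactate 3. With all libraries 20 of 30 genes were below 0, against 52.3% of all genes, with a median of -0.45 against -0.03 for all genes. Without that library it was 28 of 30, against 51.4%, with a median of -0.35. edgeR called 0 of the 30 in both fits, where 0.226% of all genes were called with all libraries (0.0274% lower) and 0.212% lower and 0.65% higher without hypoxia-lactate 3. At an unadjusted p under 0.05 the count with all libraries was 4 lower and 2 higher, against 5.32% and 9.3% of all genes, and DESeq2 called 1 (2.99% of all genes) and limma-voom 0. In libraries that did not overlap, 13 of the 30 were lower, against 11.3% of all genes, and 1 higher (Scd2), against 8.23%.

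Single genes show how far that library reached. Mvk read 15.1, 19.8 and 9.999 CPM in normoxia-lactate and 8.18, 8.93 and 52.9 CPM in hypoxia-lactate, where the first 2 values are below and the third above every normoxia-lactate value. Its log2 fold change was 0.64 ± 0.60 with all libraries and -0.81 ± 0.32 without hypoxia-lactate 3. Tm7sf2 read 17.5, 22.3 and 15.6 CPM against 14.5, 14.96 and 63.6 CPM. In the same library Nsdhl was at 1.31 CPM, against 11.5 and 14.96 CPM in the others of its group, and Elovl6 had 0 counts, against 3.65 and 3.49 CPM. Scd2 read 37.9, 51.6 and 40.8 CPM in normoxia-lactate and 63.6, 61.6 and 212 CPM in hypoxia-lactate. Here the other 2 libraries pointed the same way as the third, and the log2 fold change was 1.37 ± 0.40 with all libraries and 0.52 ± 0.19 without it (edgeR, adjusted p 0.235 and 0.234). Fdps was below without overlap in this medium too, with 23.1, 33.7 and 25.3 CPM against 19.7, 19.4 and 15.4 CPM (-0.59 ± 0.28). Scaling by upper quartiles moved the median of all genes by -0.13 in this comparison and turned the sign of Insig2, Acaca, Scap and Insig1.

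**Figure D3:**
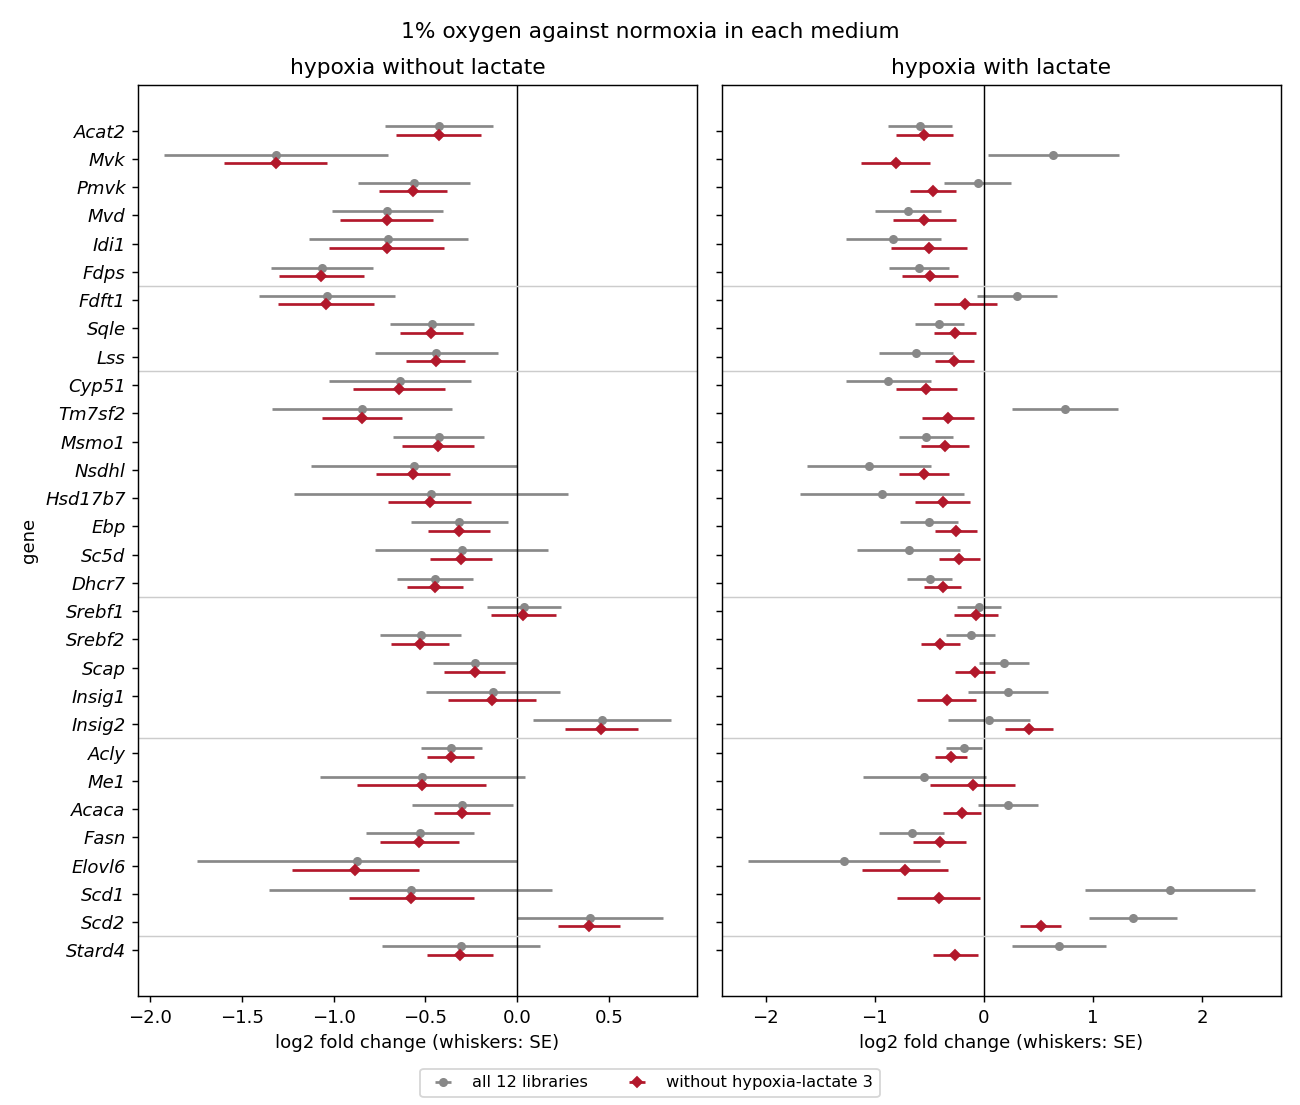
Log2 fold change of hypoxia against normoxia (horizontal axis) for the 30 genes (rows, by role) without lactate (left) and with lactate (right), with whiskers of 1 SE. Grey circles use all 12 libraries and red diamonds leave out hypoxia-lactate 3. On the left the estimates hardly move and the whiskers shorten. On the right 8 genes go from above to below 0: Mvk, Fdft1, Tm7sf2, Scd1, Stard4, Acaca, Scap and Insig1, of which the last 3 are below 0 with all libraries under upper-quartile scaling.

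Averaging the hypoxia effect over both media drew on all libraries. With all 12 libraries the log2 fold change was below 0 for 25 of 30 genes, against 50.9% of all genes, and 0 of 30 were called, where 1.38% of all genes were (0.26% lower and 1.12% higher). Fdps came nearest, at -0.83 ± 0.20 (edgeR, adjusted p 0.0634). At an unadjusted p under 0.05 the count was 12 lower and 1 higher, against 6.69% and 8.48% of all genes, and DESeq2 called 3 (5.88% of all genes) and limma-voom 0. Without hypoxia-lactate 3, 28 of 30 were below 0, against 51.8%, with a median of -0.42, and 7 of 30 were called lower and 1 higher, against 3.68% and 3.91% of all genes.

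Those 8 calls without hypoxia-lactate 3 came from 4 of the 6 role groups. In the mevalonate steps Mvk fell by 1.06 ± 0.21 on the log2 scale (edgeR, adjusted p 0.0109), Fdps by 0.78 ± 0.17 (0.0195) and Pmvk by 0.52 ± 0.14 (0.0424). Beyond lanosterol, Tm7sf2 fell by 0.59 ± 0.16 (edgeR, adjusted p 0.0463), Nsdhl by 0.56 ± 0.15 (0.0445) and Dhcr7 by 0.41 ± 0.11 (0.0467). Among the regulators Srebf2 fell by 0.46 ± 0.12 (edgeR, adjusted p 0.0346). In hypoxia-lactate 3, left out here, Srebf2 read 327 CPM and Pmvk 27.2 CPM, each above all other libraries. Scd2 rose by 0.46 ± 0.13 (edgeR, adjusted p 0.0448), the single fatty acid gene called. Insig2 was the other member above 0, at 0.44 ± 0.15 (edgeR, adjusted p 0.0914). In hypoxia-lactate 3 Insig2 read 12.3 CPM, below all other libraries. For 6 genes (Mvk, Mvd, Fdps, Lss, Srebf2 and Acly) all 5 remaining hypoxia libraries lay below all 6 normoxia libraries, against 2.74% of all genes, and for 0 above, against 3.54%. When normoxia-NaCl 1, the library highest for Mvk and Tm7sf2 in its group, was left out as well, 7 were called lower (Mvk, Fdps, Pmvk, Srebf2, Dhcr7, Elovl6 and Acly), where 8.94% of all genes were called in either direction. Tm7sf2, Nsdhl and Scd2 were then not called.

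**Figure D4:**
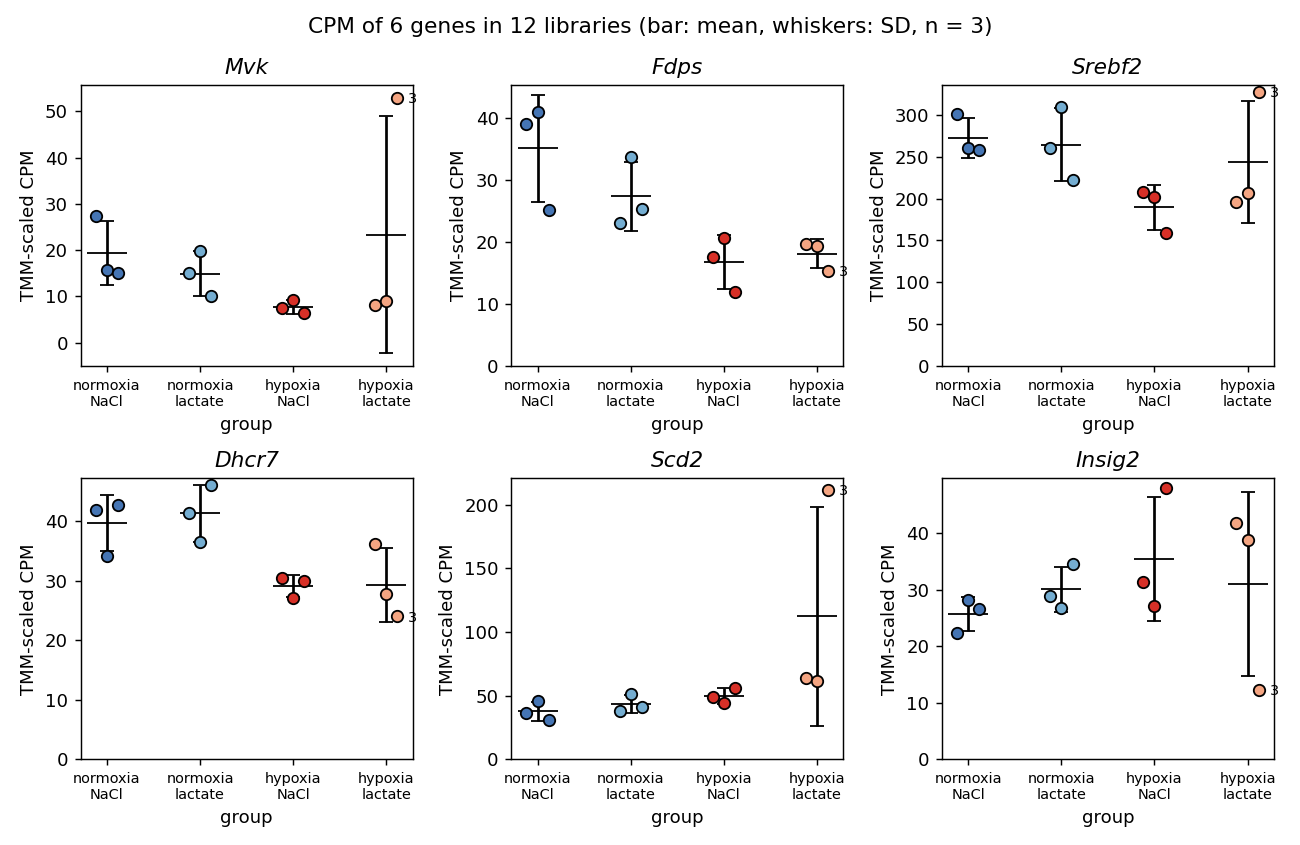
TMM-scaled CPM (vertical axes, each panel on its own scale) of Mvk, Fdps, Srebf2, Dhcr7, Scd2 and Insig2 in the 4 groups (horizontal axis), with points for libraries, bars for group means and whiskers for the SD over 3 libraries. In hypoxia-lactate, library 3 stands far above the other 2 for Mvk (52.9 CPM against 8.18 and 8.93 CPM) and Scd2 (212 CPM against 63.6 and 61.6 CPM). The same library is also above them for Srebf2 (327 CPM against 196 and 206 CPM). For Insig2 it is below them (12.3 CPM against 41.9 and 38.7 CPM).

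Lactate in normoxia (normoxia-lactate against normoxia-NaCl) left the 30 genes centred on 0. There were 15 genes below and 15 above 0, and the log2 fold changes ran from -0.43 (Ebp) to 0.25 (Idi1). edgeR called 0 of 30 with 0% of all genes called, and 0 of 30 had an unadjusted p under 0.05, against 1.55% of all genes (0.951% lower), with DESeq2 and limma-voom at 0 as well. Ebp, at 69.2, 45.4 and 45.4 CPM in normoxia-NaCl and 40.4, 37.8 and 40.7 CPM in normoxia-lactate, was the 1 gene whose libraries did not overlap, against 6.16% of all genes lower. Mvk (-0.37 ± 0.60) and Fdps (-0.36 ± 0.28) overlapped.

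Lactate in hypoxia (hypoxia-lactate against hypoxia-NaCl) showed higher values for 19 of 30 genes and lower values for 11, where 52.5% of all genes were below 0, and edgeR called 0 of 30 with 0% of all genes called. Without a correction for multiple tests 7 were higher (Mvk, Fdft1, Tm7sf2, Acaca, Scd1, Scd2 and Stard4) and 1 lower (Ebp) at p under 0.05, against 7.31% and 4.08% of all genes, and DESeq2 and limma-voom called 0. In each of those 7, hypoxia-lactate 3 was the highest of the 12 libraries. Scd1 moved from 2.52 ± 0.80 on the log2 scale with that library to 0.41 ± 0.38 without it, having read 3.55, 2.48 and 2.22 CPM in hypoxia-NaCl and 3.58, 3.71 and 40.3 CPM in hypoxia-lactate. Stard4 moved from 0.94 ± 0.43 to 0.01 ± 0.20, and Mvk from 1.58 ± 0.62 to 0.14 ± 0.31. Fdft1 moved from 1.11 ± 0.37 to 0.65 ± 0.29, and Tm7sf2 from 1.59 ± 0.50 to 0.53 ± 0.24 (edgeR, adjusted p without the library 0.506 and 0.519). Ebp stood at -0.61 ± 0.27 and, without the library, at -0.36 ± 0.19. Upper-quartile scaling moved the median of all genes by -0.11 and with it the sign of 6 genes near 0 (Mvd, Srebf1, Acly, Sqle, Dhcr7 and Fdps).

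The difference between the 2 hypoxia effects (the interaction) was called for 0 of 30 genes and 0% of all genes, and was below 0 for 15 of 30, against 52.1% of all genes. Mvk (1.95 ± 0.86), Fdft1 (1.34 ± 0.52) and Tm7sf2 (1.59 ± 0.69) had unadjusted p under 0.05, 3 higher and 0 lower, against 3.4% of all genes (1.68% higher and 1.72% lower), and edgeR's adjusted p was 0.902 for each. DESeq2 and limma-voom called 0. Without hypoxia-lactate 3 the interaction was 0.51 ± 0.41 for Mvk, 0.87 ± 0.39 for Fdft1 and 0.52 ± 0.32 for Tm7sf2 on the log2 scale (edgeR, adjusted p 0.998 for each). Upper-quartile scaling moved the median of all genes by -0.13 in this term. No gene of the set was thus shown to respond to hypoxia differently in the 2 media.

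Hypoxia and lactate together (hypoxia-lactate against normoxia-NaCl, which shares its libraries with the comparisons above) gave 19 of 30 genes below 0, against 50.8% of all genes. Upper-quartile scaling moved the median of all genes by -0.11 here and turned the sign of Srebf1, Fdft1, Scap, Mvk and Insig1. edgeR called 0 of 30 where 1.61% of all genes were called. At an unadjusted p under 0.05 it counted 6 lower and 2 higher, against 8.91% and 11.8% of all genes, and DESeq2 called 3 (9.92% of all genes) and limma-voom 0. Scd2 came nearest at 1.57 ± 0.40 (edgeR, adjusted p 0.0718). Without hypoxia-lactate 3, 26 of 30 were below 0, against 50.4% of all genes. In that fit Mvk fell by 1.17 ± 0.32 and Scd2 rose by 0.73 ± 0.19 (edgeR, adjusted p 0.0456 and 0.0354), against 3.26% of all genes lower and 3.6% higher. Neither was called when normoxia-NaCl 1 was left out as well (0 of 30, against 5.98% of all genes). With the library numbers as a block and without hypoxia-lactate 3, 9 of 30 were called, against 14.0% of all genes. Insig2 and Scd2 were higher there and the rest lower. The numbers did not pass the check of pairing in this comparison. Ebp read 34.4, 32.3 and 17.2 CPM in hypoxia-lactate, below its normoxia-NaCl values, with -0.93 ± 0.27 and, without the library, -0.67 ± 0.19 (edgeR, adjusted p 0.0958 and 0.0516).

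Other genes of the pathway were read from lists apart from the 30. Of 12 tested genes of other sterol and isoprenoid steps, 0 were called in any of the 7 comparisons, with or without hypoxia-lactate 3. In hypoxia without lactate 7 of these 12 were below 0 (median -0.18), against 48.8% of all genes. Of 12 tested further fatty acid genes 10 were below 0 there (median -0.31), and 0 were called with all libraries. Without hypoxia-lactate 3, Fads1, a desaturase of polyunsaturated fatty acids, was called lower in hypoxia without lactate at -0.81 ± 0.17 (edgeR, adjusted p 0.0348). In that fit 0.557% of all genes were called lower. Fads1 read 249.8, 156 and 156 CPM in normoxia-NaCl and 108, 110 and 103 CPM in hypoxia-NaCl. Averaged over both media, Fads1 fell by 0.71 ± 0.13 (edgeR, adjusted p 0.00674). Fads2, its neighbour in the same pathway, fell by 0.97 ± 0.20 there (edgeR, adjusted p 0.0123), where 3.68% of all genes were called lower. These 2 lower desaturases stand beside the higher Scd2 in the same comparison. For both treatments together without hypoxia-lactate 3, 2 of these 12 were called lower and 1 higher, against 3.26% and 3.6% of all genes. The higher gene was Acss2, which makes acetyl-CoA from acetate, at 0.62 ± 0.17 (edgeR, adjusted p 0.0428). In that comparison 10 of the 12 were below 0 (median -0.37).

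Among 10 genes of SREBP processing and turnover, Rnf145, a ubiquitin ligase known to act on SCAP, was the 1 called, without hypoxia-lactate 3. It read 38.6, 33.2 and 46.9 CPM in normoxia-NaCl and 68.3, 60.3 and 83.6 CPM in hypoxia-NaCl, without overlap. Rnf145 rose by 0.84 ± 0.19 on the log2 scale (edgeR, adjusted p 0.0421) in hypoxia without lactate and by 0.70 ± 0.14 averaged over both media (0.00975). Without hypoxia-lactate 3, 1.23% of all genes were called higher in hypoxia without lactate. Averaged over both media the shares were 3.91% higher and 3.68% lower. Of 6 genes of the oxysterol receptors LXR and of sterol efflux, Nr1h3, which encodes LXR alpha, fell by 0.40 ± 0.11 and Mylip, an LXR target that degrades lipoprotein receptors, rose by 0.37 ± 0.10 averaged over both media without that library (edgeR, adjusted p 0.0470 and 0.0474). Abca1, a cholesterol efflux pump, was not called and is named after its values were seen. Abca1 read 26.8, 18.5 and 59.5 CPM in normoxia-NaCl and 111, 56.5 and 179 CPM in hypoxia-NaCl, at 1.72 ± 0.66 on the log2 scale (edgeR, adjusted p 0.650, and 0.135 without hypoxia-lactate 3). With lactate Abca1 read 24.6, 13.1 and 51.2 CPM in normoxia and 81.7, 36.4 and 196 CPM in hypoxia. The groups overlap in both media. Of the 6 genes of this list, 3 were below and 3 above 0 in hypoxia without lactate (median -0.02). Each hypoxia library of Abca1 was above the normoxia library of the same number, with no share of all genes given for that pattern. It is therefore not read as a result about sterol efflux. With lactate, the numbers did not pass the check of pairing. With all 12 libraries 0 of these 16 genes were called in any comparison.

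Cell cycle genes also tended to lower values in hypoxia. Of 18 such genes 17 were below 0 in hypoxia without lactate (median -0.55), against 48.8% of all genes. Their summed level was 738 to 1345 CPM in normoxia-NaCl and 589 to 909 CPM in hypoxia-NaCl, ranges that overlapped. For lactate in normoxia 18 of 18 were below 0 (median -0.84), where 15 of the 30 and 48.7% of all genes were. Averaged over both media without hypoxia-lactate 3, the replication genes Mcm2 and Mcm5 were called lower, where 3.68% of all genes were. The macrophage markers Mrc1 and Mertk, 2 of 8, were called lower there too. With all 12 libraries 1 of the 8 macrophage markers was called lower averaged over both media, against 0.26% of all genes. For both treatments together 1 of the 8 and 1 of the 18 cell cycle genes were called lower, against 0.438% of all genes. The part of cell cycle or of macrophage state in the levels of the 30 genes was not tested.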

How the data were processed

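Raw counts per Ensembl gene were deposited for each library. BWA, HTSeq and mm9 are named by the submitters' processing notes. Annotation release and strand setting: not given in the sources used here. Counts of overlapping genes and near-identical copies are therefore uncertain. The 5 counters that name no gene were left out: they held 0.361% to 0.442% of reads (ambiguous), 0% (low quality), 2.02% to 5.48% (not aligned), 8.34% to 18.4% (not unique) and 13.7% to 22.0% (no gene). Symbols were matched by identifier, and 14122 of 14616 tested genes had one. Exon lengths come from a GENCODE annotation of GRCm38. Copies were sought with blastn 2.17.0.

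Tests were edgeR 4.0.16 quasi-likelihood F tests in R 4.3.3, with TMM scaling and filterByExpr, in 1 fit of 12 libraries with a mean per group and Benjamini-Hochberg adjustment over all tested genes (threshold 0.05). Each SE is the size of the log2 fold change divided by the root of F. CPM are TMM-scaled. The common biological coefficient of variation was 38.2%. The 30 genes and the lists were chosen with earlier results of these data known. All 30 are named, and of each other list up to 3 genes each way per comparison past the threshold, the text leaving out some for length. The scripts were tested on simulated data.

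Alternatives were RLE and upper-quartile factors, no filter, a mean of at least 5 CPM, DESeq2 1.42.0, limma-voom (limma 3.58.1) with and without quality weights, the library number as a block, only the groups compared, and libraries left out. In hypoxia without lactate, same-numbered libraries deviated together (correlations of 0.138 to 0.315, all above 0.1), so the numbers passed the check of pairing there. The block was nevertheless fitted over all groups in 1 fit, the lactate libraries included. In each other comparison of 2 groups at least 1 pair fell short of 0.1. One gene of the lists is not analysed here.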

Additional observations from a re-analysis of the deposited data

How the results depend on the processing

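With all 12 libraries 0 of the 30 genes were called in each of the 7 comparisons, and the count stayed 0 for lactate in normoxia, lactate in hypoxia and the interaction under every alternative run. DESeq2 called 1 gene in hypoxia without lactate (Fdps), 1 with lactate (Scd2), 3 averaged over both media (Mvd, Dhcr7 and Fdps) and 3 for both treatments together (Scd2, Ebp and Fdps), against 1.05%, 2.99%, 5.88% and 9.92% of all genes. limma-voom with quality weights called 3, 1, 11 and 1 in the same 4 comparisons, against 3.59%, 5.04%, 15.1% and 7.38% of all genes. Without the filter on low counts 1 gene (Scd2) was called for both together. The replicate block called 1 gene averaged over both media (Fdps) and 0 in the other comparisons. For the fits without the filter and with the block on all libraries, the share of all genes called is not given here. Those counts are therefore not read as a result about the 30 genes. With hypoxia-lactate 3 left out, the replicate block called 7 lower in hypoxia without lactate, where 5.08% of all genes were called. These were Cyp51, Mvd, Fdft1, Srebf2, Tm7sf2, Mvk and Fdps. The numbers passed the check of pairing in that comparison, but the block was fitted over all groups. The same fit called 20 averaged over both media and 9 for both together, where 14.7% and 14.0% of all genes were called. In both comparisons Insig2 and Scd2 were called higher and the rest lower. Insig2 stood at 0.49 averaged and 0.77 for both together (edgeR, adjusted p 0.0235 and 0.0200). The pairing missed its limit for both together. It was not checked for the average itself, of which the part with lactate missed the limit in pair 3 (0.0226), the pair of hypoxia-lactate 3, and not in pairs 1 and 2 (0.122 and 0.126). Without both hypoxia-lactate 3 and normoxia-NaCl 1 the count was 7 averaged over both media (8.94% of all genes) and 0 in the others, so the calls for hypoxia without lactate and for both together were lost. Leaving out 1 library at a time gave 0 to 2 calls in hypoxia without lactate and 0 with lactate. Such fits gave 0 to 8 calls averaged over both media and 0 to 2 for both together. The highest counts came without hypoxia-lactate 3. In that fit 0.557% of all genes were lower and 1.23% higher in hypoxia without lactate. The shares were 3.68% and 3.91% averaged over both media, and 3.26% and 3.6% for both together. Leaving out hypoxia-lactate 1 or hypoxia-lactate 2 gave 1 call for both together (Scd2), with the share of all genes not given here. The cause of these shifts was not tested.

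The median log2 fold change of the 30 genes kept its sign in the 4 comparisons of oxygen: -0.59 to -0.35 without lactate, -0.57 to -0.30 with lactate, -0.50 to -0.35 averaged and -0.51 to -0.27 for both together. For lactate in normoxia (-0.11 to 0.07), lactate in hypoxia (-0.03 to 0.19) and the interaction (-0.10 to 0.18) it lay on both sides of 0. Few counts limit single values: in hypoxia-lactate 3, Elovl6 had 0 counts, Hsd17b7 3 and Nsdhl 22, at a library total (22705978) near that of hypoxia-lactate 2 (25256178).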
